A study of Mus musculus with 6 samples.

Results

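The 8 genes described here mark the origin and the segment of a kidney tubule cell: Pax2, Pax8, Hnf4a, Lhx1, Emx2, Sall1, Cdh16 and Aqp1. They were chosen by name, with earlier results of these data known, and all 8 were found by their GENCODE M21 symbol among the 22442 gene identifiers of the deposited table. RNA was sequenced in 6 libraries of mTECs, an immortalised murine renal tubular epithelial cell line grown in medium with 5% foetal bovine serum. All cells were stimulated with LPS, the lipopolysaccharide of bacterial outer membranes, at 20 μg/ml for 24 h. The methods of the study place an overnight starvation in low-serum medium before the LPS. For the 3 libraries labelled LPS the cells were first transfected with a negative control, and for the 3 labelled LPSKD with an siRNA, whose target was Stat3. No library without LPS was analysed here, and the methods of the study also list an shRNA against this transcript without saying which was used for these libraries. The labels describe the cells as magnetically sorted.

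Pax2 and Pax8 are paired-box transcription factors that set up the renal lineage and act together in it, and both stay on in part of the adult tubule and return after tubular damage. Lhx1, Emx2 and Sall1 are required for early kidney formation. Hnf4a drives the maturation of the proximal tubule, and Aqp1 is the water channel of the proximal tubule and the thin descending limb. Cdh16, also called Ksp-cadherin, is an adhesion protein found along the tubule and in few other tissues.

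The level of Stat3, the targeted transcript, did not separate the groups. It was 34.6, 31.4 and 35.2 FPKM under the LPS label and 30.8, 35.2 and 34.3 FPKM under LPSKD, so that the groups overlapped. FPKM is the number of fragments on a gene scaled by gene length and library size. The log2 fold change of Stat3 was −0.01 (standard error, SE, 0.07, limma adjusted p = 0.944). The groups are therefore named by their labels, and every direction below rests on them. The paper itself reports a knockdown of Stat3 in mTECs by real-time PCR and western blot. It does not say whether those cells were the ones sequenced. Library totals worked out from the values lay between 24084827 and 25422171 fragments, so that depth was nearly even.

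The line held high levels of Cdh16, Pax8 and Pax2, and Hnf4a was near the limit of what was tested. Cdh16 was the most abundant of the 8 genes, followed by Pax8, Pax2, Emx2, Sall1, Aqp1 and Hnf4a, and Lhx1 had no fragment in any library. Pax2, Pax8, Cdh16 and Aqp1 were higher in the libraries labelled LPSKD by 1.52-, 1.31-, 1.20- and 1.90-fold, while Emx2, Sall1 and Hnf4a did not pass the test. Of the 7 tested members 4 were called, all higher, where 3.23% of the 11723 tested genes were called in either direction, 1.57% higher and 1.66% lower. The same 4 had groups that did not overlap, as did 10.6% of tested genes in that direction.

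Differences were tested with limma, a linear model fitted to all genes at once, on log2(FPKM + 0.1), and genes under a mean of 0.5 FPKM were left out. P-values were adjusted over all tested genes by Benjamini-Hochberg, and an adjusted p under 0.05 was called. Lhx1, at 0, was not tested. Folds are 2 to the power of the log2 change on this scale, which understates changes of low genes. With 3 libraries a side, the smallest two-sided p of an exact permutation test is 0.1, which each of the 4 called genes reached. The labels do not say whether the 3 libraries of a group came from separate cultures, so that the p-values measure the spread between these libraries.

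**Figure D1:**
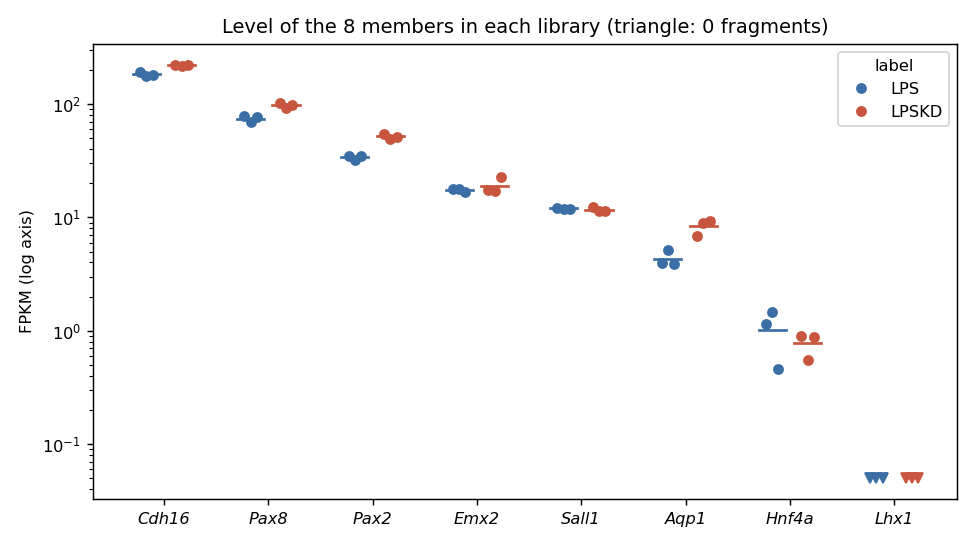
FPKM of the 8 members in each library on a log axis, with 3 points and a bar at the mean for each label, ordered by level. The groups separate for Cdh16, Pax8, Pax2 and Aqp1, and Lhx1 is drawn as triangles because it had 0 fragments.

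Sequences before start sites of Pax2, Pax8 and Aqp1 are shown because these genes were called higher, as was Cdh16. A further Pax2 window is left out. They are RefSeq sequences of GRCm38.p6, the 250 bases before an annotated start, on the strand of the gene. RefSeq windows matched 7 of the 8 members, all but Cdh16, with 12 windows in all. Capitals mark the letters TTCNNNGAA, the palindrome bound by STAT dimers, of which the reverse complement is the same.
Pax2 at chr19:44746351-44746600, plus strand: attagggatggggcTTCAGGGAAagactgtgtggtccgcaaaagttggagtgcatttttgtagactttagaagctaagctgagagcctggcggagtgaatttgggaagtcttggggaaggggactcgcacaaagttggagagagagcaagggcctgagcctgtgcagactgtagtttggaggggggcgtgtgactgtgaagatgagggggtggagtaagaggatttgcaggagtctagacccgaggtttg
Pax2 at chr19:44756656-44756905, plus strand: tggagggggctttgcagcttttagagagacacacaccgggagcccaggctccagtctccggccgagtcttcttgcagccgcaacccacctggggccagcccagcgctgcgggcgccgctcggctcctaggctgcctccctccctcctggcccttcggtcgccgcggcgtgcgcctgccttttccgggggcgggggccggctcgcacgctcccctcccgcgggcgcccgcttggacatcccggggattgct
Pax8 at chr2:24475600-24475849, minus strand: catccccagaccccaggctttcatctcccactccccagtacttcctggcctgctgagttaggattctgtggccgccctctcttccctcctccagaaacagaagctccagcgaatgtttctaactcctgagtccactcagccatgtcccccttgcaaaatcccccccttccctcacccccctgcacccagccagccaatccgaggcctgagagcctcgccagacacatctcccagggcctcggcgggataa
Aqp1 at chr6:55336049-55336298, plus strand: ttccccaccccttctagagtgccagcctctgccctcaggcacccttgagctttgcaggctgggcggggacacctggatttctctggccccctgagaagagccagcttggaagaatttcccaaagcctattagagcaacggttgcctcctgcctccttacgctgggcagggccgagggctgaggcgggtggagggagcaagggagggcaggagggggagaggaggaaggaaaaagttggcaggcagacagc

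Of the 12 windows, 1 held the STAT letters, the distal Pax2 window, at positions −236 to −228 where −1 is the last base before the start. That start lies 10793 bases before the first coding base of Pax2. The window lies outside the GENCODE M21 span of Pax2, which begins at 44756045. For the other Pax2 window shown, the start lies 488 bases before the first coding base. The Pax2 window left out, at chr19:44755502-44755751, did not hold the STAT letters. Among all 32851 RefSeq windows of this length, 7.02% held TTCNNNGAA. The windows were also searched on both strands for the interferon response element (ISRE) and the TATA letters TATAAA, which 2.98% and 12.4% of all windows held, and neither was found in the 12. A match of letters is no evidence of binding, and no match says only that these letters are not in this window.

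Pax2 (ENSMUSG00000004231; chromosome 19 of GRCm38, 44756045 to 44837871, plus strand) was at 34.6, 32.3 and 35.0 FPKM under the LPS label and at 54.5, 49.1 and 51.5 FPKM under LPSKD. Each LPSKD library was above each LPS library, and the gap between the groups was wider than the spread within either. The means were 34.0 ± 1.45 and 51.7 ± 2.68 FPKM (SD, n = 3 each), and each library held 1052 to 1780 fragments of Pax2. The log2 fold change of 0.60 (SE 0.06, 95% interval 0.48 to 0.73, limma adjusted p = 0.00101) was the most precise of the 4 relative to its size. Under 16 alternative settings, with each library left out among them, it lay between 0.57 and 0.64 and the call was kept.

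Pax8 (ENSMUSG00000026976; chromosome 2, 24420560 to 24475599, minus strand), the partner of Pax2 in the lineage, was at 77.6, 69.6 and 76.1 FPKM under the LPS label and at 103.1, 92.6 and 97.6 FPKM under LPSKD. The groups did not overlap. Its means of 74.5 ± 4.29 and 97.8 ± 5.25 FPKM (SD, n = 3 each) correspond to a log2 fold change of 0.39 (SE 0.06, 95% interval 0.26 to 0.52, limma adjusted p = 0.00844). An antisense gene, Gm13415, covers 367 of the 1405 coding bases of Pax8 (26.1%) on the opposite strand. Whether strand was used in counting is not given in the sources used here, so that fragments of both genes on these bases cannot be told apart.

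Pax2 and Pax8 did not change by the same factor. The level of Pax8 per unit of Pax2 was 2.24, 2.15 and 2.18 under LPS and 1.89, 1.89 and 1.89 under LPSKD. The ratio was lower in every LPSKD library (mean 2.19 ± 0.0454 and 1.89 ± 0.00434, SD, n = 3 each; exact permutation test, two-sided p = 0.1, the smallest possible). Pax8 was still the more abundant of the pair in all 6 libraries. Cdh16 per unit of Pax2 was likewise lower, at 5.39 ± 0.206 under LPS and 4.27 ± 0.212 under LPSKD (SD, n = 3 each; exact permutation test, p = 0.1). Among stretches of 31 coding bases, none of Pax2 was found in transcripts of other genes on either strand, and 21.1% of those of Pax8 were, in Gm13415.

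Cdh16 (ENSMUSG00000031881; chromosome 8, 104601911 to 104624396, minus strand) had a mean FPKM above that of 96.3% of the 16837 genes with any fragment. It was at 192.3, 176.5 and 180.4 FPKM under LPS and at 219.7, 218.5 and 222.4 FPKM under LPSKD. The LPSKD libraries lay close together and above all LPS libraries, with means of 183.1 ± 8.20 and 220.2 ± 1.99 FPKM (SD, n = 3 each). The change was the smallest of the 4 called, a log2 fold change of 0.27 (SE 0.04, 95% interval 0.18 to 0.36, limma adjusted p = 0.00935). The adjusted p became 0.0579 without replicate 3 of the LPS label and 0.0567 without replicate 3 of the LPSKD label, and 0.0754 with no trend of the variance on level.

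Aqp1 (ENSMUSG00000004655; chromosome 6, 55336432 to 55348555, plus strand) showed the largest rise from a low level. It was at 3.98, 5.12 and 3.90 FPKM under LPS and at 6.84, 8.99 and 9.20 FPKM under LPSKD. The groups did not overlap, and 77 to 189 fragments per library lie behind these values. The means of 4.33 ± 0.684 and 8.34 ± 1.31 FPKM (SD, n = 3 each) correspond to a log2 fold change of 0.93 (SE 0.16, 95% interval 0.57 to 1.28, limma adjusted p = 0.0174). The call was lost without replicate 3 of LPS, replicate 2 of LPSKD or replicate 3 of LPSKD, with limma adjusted p of 0.0766, 0.0781 and 0.0867, and at 0.0698 when the variance was not modelled as a trend on level.

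Aqp1 is also made by red blood cells and endothelial cells, whose transcripts were present. The summed FPKM of the red blood cell list was 338.7, 168.7 and 148.1 under LPS and 362.0, 288.8 and 372.4 under LPSKD. The 5 tested red blood cell genes all had a positive log2 fold change, as did 5569 of the 11723 tested genes. Their median was 0.72, and the groups did not overlap in 2 of them, beside 10.6% of tested genes in that direction. None passed the threshold, the smallest limma adjusted p being 0.0681, and their part in the Aqp1 result was not tested. The endothelial list summed to between 7.77 and 10.6 FPKM under LPS and between 7.42 and 12.3 FPKM under LPSKD, and the adjusted p of its 6 tested genes was at least 0.473. Fewer cells of a type and less RNA per cell cannot be told apart in such samples.

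Emx2 (ENSMUSG00000043969; chromosome 19, 59458372 to 59465357, plus strand), a homeobox factor of the early urogenital epithelium, was at 17.7, 17.7 and 16.7 FPKM under LPS and at 17.3, 17.2 and 22.7 FPKM under LPSKD. Replicate 3 of LPSKD stood above the other libraries, and the rest overlapped. The log2 fold change was 0.12 (95% interval −0.12 to 0.37, limma adjusted p = 0.617) and became −0.01 without that library. Sall1 (ENSMUSG00000031665; chromosome 8, 89027235 to 89044162, minus strand), a zinc finger factor of nephron progenitors, was the steadiest of the 8 genes. It was at 12.2, 12.0 and 11.9 FPKM under LPS and at 12.4, 11.3 and 11.5 FPKM under LPSKD. Its log2 fold change of −0.04 had a 95% interval from −0.20 to 0.13, so that a rise above 1.09-fold or a fall to under 0.870 of the LPS level lies outside the interval.

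Hnf4a (ENSMUSG00000017950; chromosome 2, 163506808 to 163572910, plus strand) was barely expressed, with 17 to 55 fragments per library. It was at 1.14, 1.46 and 0.459 FPKM under LPS and at 0.899, 0.548 and 0.883 FPKM under LPSKD, so that the LPS libraries spanned the whole range of the others. The log2 fold change was −0.26 (SE 0.43, 95% interval −1.23 to 0.72, limma adjusted p = 0.815), and it was 0.05 without replicate 2 of LPS. Without replicate 3 of LPS it was −0.69, so that single libraries moved the value widely. Lhx1 (ENSMUSG00000018698; chromosome 11, 84518284 to 84525535, minus strand), a LIM homeobox factor that is switched off as nephrons mature, had 0 fragments in each of the 6 libraries. A count of 0 allows up to 3 fragments, or between 0.0940 and 0.0992 FPKM by library, for counting error only.

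Hnf4a is a hepatocyte factor as well, and hepatocyte transcripts were present in all 6 libraries. Alb, serum albumin, was at 159.9, 339.1 and 149.5 FPKM under LPS and at 182.4, 174.5 and 162.9 FPKM under LPSKD. The summed FPKM of 16 hepatocyte genes was 982.8 in replicate 2 of LPS and between 386.2 and 514.1 in the other 5 libraries. Replicate 2 of LPS was also the library with the highest Hnf4a, and the part of these transcripts in the Hnf4a level was not tested. All 16 hepatocyte genes were tested and had an adjusted p of at least 0.293.

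**Figure D2:**
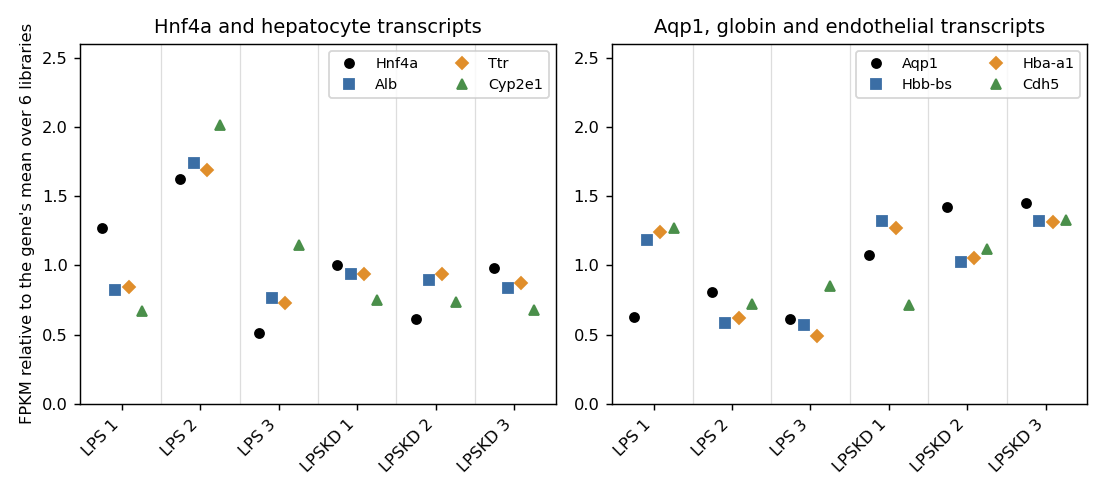
FPKM of each gene divided by its own mean over the 6 libraries, with libraries on the horizontal axis and 1 symbol per gene. Left, Hnf4a, Alb, Ttr and Cyp2e1 are each highest in replicate 2 of LPS. Right, Aqp1 is drawn with the globin genes Hbb-bs and Hba-a1 and the endothelial gene Cdh5.

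The order of levels was stable. For each pair of neighbours from Cdh16 to Hnf4a, the higher gene was above the lower in 6 of 6 libraries, and their ranges over the 6 libraries did not overlap. The closest neighbours were Emx2 and Sall1, with a ratio of mean FPKM of 1.53, and the widest step was from Aqp1 to Hnf4a, at 7.06. Across the 16837 genes with any fragment, the mean of Pax8 stood above 89.8%, that of Pax2 above 78.8%, that of Emx2 above 62.5% and that of Sall1 above 55.0%. Aqp1 stood above 46.6% and Hnf4a above 33.8%.

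**Figure D3:**
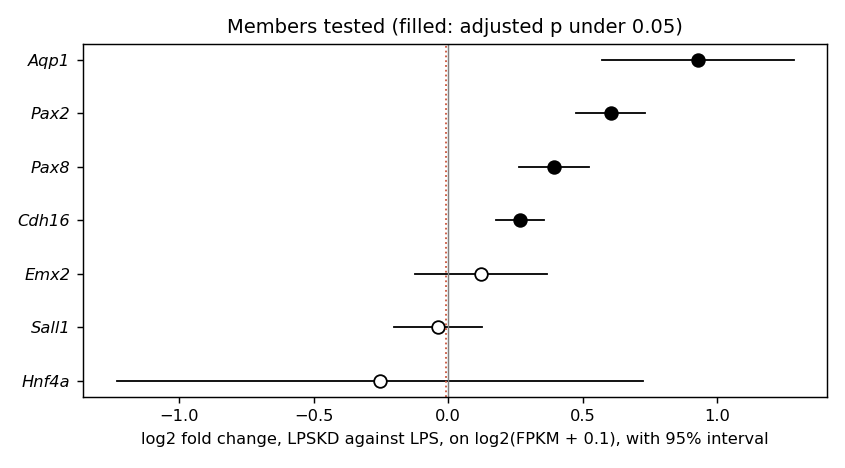
Log2 fold change of the 7 tested members, LPSKD against LPS, on log2(FPKM + 0.1), with 95% intervals from limma. Filled points are the 4 genes with an adjusted p under 0.05, all to the right of the dotted line, which marks the median over all tested genes (−0.01).

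Other genes that specify the nephron gave a mixed picture. Of 40 such genes, 6 had no fragment and 21 were tested, of which 1 was higher, 1 was lower and 19 did not pass. The median log2 fold change of the 21 was −0.02, beside −0.01 for all tested genes. Wnt4, the signal that starts nephron formation, rose from 3.88 ± 0.643 to 6.66 ± 0.210 FPKM (SD, n = 3 each; log2 fold change 0.77, limma adjusted p = 0.0196). Its call was lost under 6 of 16 alternatives, which were no filter, no variance trend, and leaving out replicate 3 of LPS or any replicate of LPSKD, with adjusted p up to 0.0891. Jag1, a Notch ligand and at 122.9 FPKM the most abundant of the 40, fell from 133.2 ± 6.79 to 112.6 ± 2.05 FPKM (SD, n = 3 each; log2 fold change −0.24, limma adjusted p = 0.0279). That call was lost with no variance trend and when any library but replicate 2 of LPS was left out, with adjusted p up to 0.119.

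Etv4 (63.9 FPKM), a target of Ret and FGF signals, and Hoxb7 (63.7 FPKM), a marker of the ureteric bud, were the next most abundant after Jag1. Ret itself had at most 6 fragments in a library, Gata3 at most 13 and Wt1 at most 6, and Six2, the progenitor factor, had 0. The values thus show Pax2, Pax8 and Hoxb7 together, with Six2, Wt1 and Ret at or near 0.

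Defining genes of each segment were at or near 0. Of 84 markers of 5 segments, 23 were at 0 in all 6 libraries, 39, these among them, stayed at or under 3 fragments everywhere, and 25 were tested. Among proximal tubule genes, Slc34a1, the phosphate carrier, had 0 fragments and Lrp2, the endocytic receptor megalin, at most 3, while Cubn, the partner of Lrp2, had 221 to 300 fragments (0.944 FPKM). In the loop of Henle, 12 of 14 genes had no more than 3 fragments, Umod had 0, Slc12a1 had at most 3, and the highest, Egf, had 16 to 54. Slc12a3 of the distal convoluted tubule had at most 1 fragment, Aqp2 of the principal cell had 0 and Slc4a1 of the intercalated cell at most 3.

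The principal cell list was led by the keratins Krt7 (1135 FPKM) and Krt19 (597.9 FPKM) and by Npnt (30.4 FPKM), an adhesion ligand. Of the 14 genes in that list, 7 stayed at or under 3 fragments in every library and 5 were tested. In the distal list, the kinases Wnk1 (64.0 FPKM) and Wnk4 (10.5 FPKM) led, followed by Trpm6 (0.695 FPKM). In the intercalated list, Hmx2 (1.43 FPKM) was the single gene tested. The smallest adjusted p in these 3 lists were 0.0612, 0.111 and 0.240.

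In the proximal list, 15 of 35 genes were tested and 1, Mme, was higher. Mme, the brush border peptidase neprilysin, was at 33.8, 34.9 and 35.7 FPKM under LPS and at 44.9, 47.1 and 47.4 FPKM under LPSKD. The groups did not overlap, and the log2 fold change of 0.42 (SE 0.05, limma adjusted p = 0.00273) kept its call when any library was left out. Slc4a4, the bicarbonate carrier, was at 30.4 FPKM and differed by −0.07 on the log2 scale (limma adjusted p = 0.524). The median of the 15 was −0.20, beside −0.01 for all genes. Cyp2e1, Fbp1 and Pck1 of this list are liver genes too, and Cyp2e1 had its highest value, 42.0 FPKM, in replicate 2 of LPS against 14.0 to 23.9 in the other libraries.

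**Figure D4:**
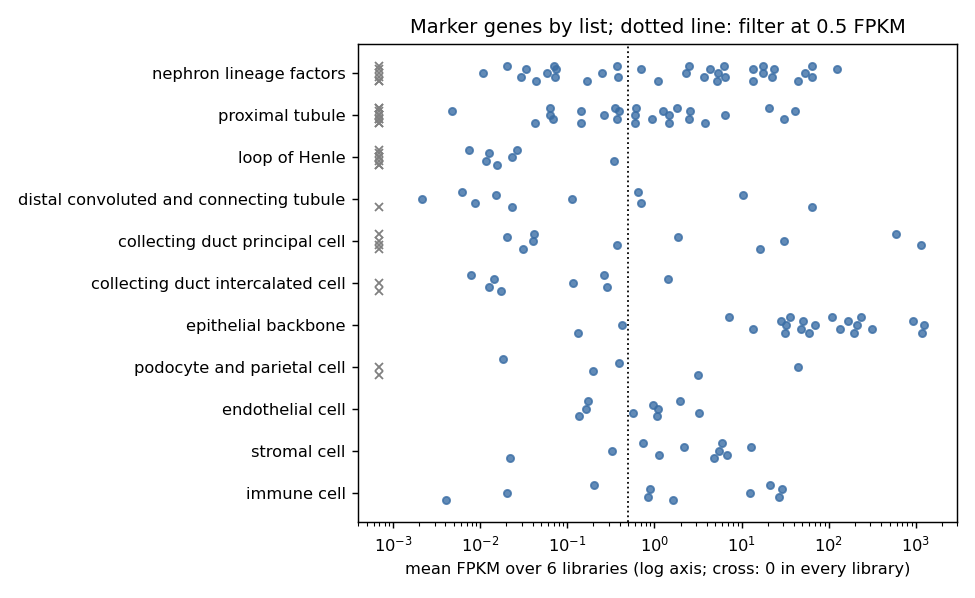
Mean FPKM over the 6 libraries of each gene in 11 marker lists, on a log axis, with crosses for genes at 0 in every library and a dotted line at the filter of 0.5 FPKM. The epithelial list lies mostly above 10 FPKM, and no loop of Henle gene reaches the filter.

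The cells were plainly epithelial. Of 22 epithelial genes, 19 had a mean of at least 10 FPKM, among them Epcam (311.5 FPKM), Cdh1 (133.6 FPKM), Krt18 (1227 FPKM), Krt8 (1188 FPKM) and Cldn4 (923.4 FPKM). Of the 20 tested, Cldn1, a tight junction protein, and Krt18 were lower and 18 did not pass, with a median log2 fold change of −0.0011. Cldn1 fell from 208.8 ± 3.04 to 176.3 ± 3.74 FPKM (SD, n = 3 each; log2 fold change −0.24, limma adjusted p = 0.00642). Its call was lost only with no variance trend, at an adjusted p of 0.0655. Krt18 had a log2 fold change of −0.15 (limma adjusted p = 0.0319), and its call was lost under 8 of 16 alternatives.

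Markers of other kidney cells were lower but not absent. Nphs1 of the podocyte was at 0, while Podxl, also made by other epithelia, was at 44.5 FPKM and Synpo at 3.20 FPKM. Pecam1 was at 0.497 to 1.52 FPKM, Pdgfrb at 0.702 to 1.57 FPKM and Ptprc at 0.372 to 1.08 FPKM, and the endothelial list was led by Egfl7 (3.26 FPKM). In the immune list, Csf1r, Ly6g and Lyz2 led, at 28.9, 27.1 and 21.5 FPKM. Csf1r, the receptor for colony-stimulating factor 1, rose from 24.4 ± 2.74 to 33.3 ± 0.583 FPKM (SD, n = 3 each; log2 fold change 0.45, limma adjusted p = 0.0208). Its call was lost under 5 of 16 alternatives, namely no variance trend and leaving out replicate 3 of LPS or any replicate of LPSKD, with adjusted p up to 0.0902. Of 10 genes used by every cell, none was at 0, and Polr2a was called lower (log2 fold change −0.25, limma adjusted p = 0.0138). The Polr2a call was lost under the same 5 settings, with adjusted p up to 0.0716. The most abundant of them, Eef1a1, Ppia and Rplp0, had log2 fold changes of 0.03, 0.05 and −0.03 and did not pass.

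Over the 6 libraries, Gsr and Akap12 were among the 3 genes most like Pax2 by Pearson's r on log2(FPKM + 0.1). Each had an r of 0.996, given as a description, since the points share the 2 group labels and 176 of the tested genes reached an r of 0.95. Their log2 fold changes were 0.19 and 0.34 (limma adjusted p = 0.0156 and 0.00157), both smaller than the 0.60 of Pax2.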

How the data were processed

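Poly(A) RNA of 6 mTEC libraries was sequenced as paired ends on an Illumina instrument. The authors deposited FPKM values, 1 column per library, for 22442 genes. The submitters' processing notes name Bowtie 0.12.2, HISAT2 2.0 and StringTie 1.3.0 and the builds mm8 and GRCh38.p13, without roles, and the latter is a human build. Gene identifiers were matched to GENCODE M21 (GRCm38), which gave symbols for 22399, and positions are from that annotation.

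Fragments were recovered by multiplying FPKM by coding length and a library total. This gave whole numbers (within 0.01) for 16836 of the 16837 genes above 0, of which 374 used a length found by search. FPKM on coding length ignores fragments in untranslated exons. Totals between 24084827 and 25422171 gave similar precision to all libraries, and floors cover counting error only.

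limma 3.58.1 in R 4.3.3 (lmFit, eBayes with trend) was run on log2(FPKM + 0.1) without covariates. The fit was tested on simulated data with the same relative spread for every gene, no counting noise and a single size of change. That test does not cover low genes or smaller changes. Alternatives were pseudocounts of 1 and 0.01, filters at 1 and 0.1 and none, quantile normalization, median centring, no trend, a replicate block, voom on the fragments, and each library left out.

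The members and the 12 lists were chosen with earlier results of these data known, and the hepatocyte and red blood cell lists were added after values were seen, with 7 of 8 red blood cell genes in the table. Named genes are the members, Stat3, the 3 most abundant and every called gene of each of the 12 lists, set defining genes, and the 3 genes most like the member of largest moderated t. The genes Gata3, Wt1, Ret, Six2, Nphs1, Fbp1, Pck1 and the hepatocyte and globin genes were named after their values were seen. Some genes that this rule names are not reported here. Python 3.11.15, pandas 2.3.3 and matplotlib 3.10.9 made tables and figures.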

Additional observations from a re-analysis of the deposited data

How the results depend on the processing

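The count of genes past the threshold, 379, became 140 without trend, 213 with the replicate block, 598 with voom, and lay between 158 and 357 with 1 library left out. The count of members past the threshold, 4, became 1 (Pax2) without trend, where the adjusted p of Pax8, Cdh16 and Aqp1 were 0.0691, 0.0754 and 0.0698, and lay between 2 and 4 with 1 library left out. It was 2 without replicate 3 of either label and 3 without replicate 2 of LPSKD. Under every other setting it was 4, and the 4 genes were higher under all 16 alternatives, with log2 fold changes of 0.57 to 0.64 (Pax2), 0.34 to 0.43 (Pax8), 0.24 to 0.30 (Cdh16) and 0.81 to 1.06 (Aqp1). The cause of these moves was not tested. The replicate numbers name the libraries and were not taken as pairs. The deviations of libraries with equal numbers correlated at −0.016, −0.0039 and −0.043. Such values show no strong pattern shared by number, but they cannot exclude that equal numbers were prepared together. The replicate block kept the call of all 4 members. The log2 fold change of Hnf4a, from 17 to 55 fragments per library, ranged from −0.69 to 0.05 and passed the threshold under none of the 15 alternatives in which it was tested.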

Other observations

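The stromal list was led by Dcn, Col3a1 and Lum at 12.9, 6.82 and 6.02 FPKM. Its summed FPKM was 46.9, 43.1 and 37.1 under LPS and 26.0, 41.4 and 48.3 under LPSKD. Replicate 1 of LPSKD held the lowest value of each of these 3 genes, at 8.48, 4.46 and 3.59 FPKM. The 8 tested stromal genes had an adjusted p of at least 0.605 from limma.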
